A study of Rattus norvegicus with 25 samples.

Results

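The genes described here encode the nuclear subunits of the 5 protein complexes of the mitochondrial respiratory chain. They were taken by symbol from the annotation of an Affymetrix rat genome array: every probe set whose single gene symbol began with Nduf followed by a subunit letter and number, with Uqcr, with Cox4 to Cox8 or with Atp5, or was Sdha, Sdhb, Sdhc or Sdhd. This gave 88 of 31042 probe sets, for 79 of the 14217 genes that the annotation names alone. By symbol, 35 of these genes belonged to complex I, 4 to complex II, 7 to complex III, 17 to complex IV and 16 to complex V. RNA was measured on 25 arrays from 7 stable lines of McArdle-RH7777, a rat hepatoma cell that secretes lipoproteins. The Sar1B:H79G group had 2 lines (8 arrays) that overexpressed FLAG-tagged Sar1B carrying the H79G change, a constitutively active form that cannot hydrolyze GTP. The Sar1B group had 2 lines (8 arrays) with native Sar1B-FLAG, the Sar1A group 1 line (4 arrays) with native Sar1A-FLAG, and the control group 2 lines (5 arrays) with no Sar1 construct. All lines, controls included, carried the tetracycline-regulated vector system, grew in blasticidin and Zeocin, and received 1 µg/ml tetracycline for 24 h before harvest. Each line derived from a single clone, and arrays of 1 line were technical replicates. Values are the deposited log2 signals, and each line was represented by the mean of its arrays.

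The respiratory chain passes electrons from NADH (complex I) and succinate (complex II) through complexes III and IV to oxygen, and complexes I, III and IV pump protons as they do so. ATP synthase, or complex V, uses the returning protons to make ATP. Complex II is also an enzyme of the citric acid cycle and is the only one of these complexes that pumps no protons and has no subunit encoded in mitochondrial DNA. Hepatocytes are rich in mitochondria, and several small subunits of complex IV exist as paired isoforms, one found in most tissues including liver and the other in heart and skeletal muscle.

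Most members were among the brightest probe sets on the arrays. Of the 79 genes, 74 had a probe set above the median of all probe sets (8.13), and 65 averaged above a log2 signal of 11. The other 5, Cox6a2, Cox8b, Cox4i2, Cox6b2 and Cox7b2, are tissue-restricted isoforms of complex IV. Averaged over all arrays, all 12 genes of a hepatocyte list lay above the median probe set, though the lowest was at 8.1 in Sar1B:H79G lines, 8.01 in Sar1B lines and 7.88 in the Sar1A line, below that median, and 8.19 in control lines. Their summed log2 signal was 131.3 and 132.4 in the Sar1B:H79G lines, against 135.7 and 137.6 in the Sar1B lines, 135.6 in the Sar1A line, and 134.7 and 138.6 in the control lines. Averaged in the same way, all 8 genes of a striated muscle list and all 5 of an endothelial list lay below the median probe set, with the highest muscle gene at 8.11 in Sar1B:H79G lines, 8.05 in Sar1B lines, 8.16 in the Sar1A line and 8.04 in control lines. The summed log2 signal of the muscle list was 59.49 and 59.72 in the Sar1B:H79G lines, against 58.69 and 59.44 in the Sar1B lines, 59.46 in the Sar1A line, and 58.16 and 58.42 in the control lines. The constructs were human, and whether rat probes read them was not tested. The rat Sar1b probe set averaged 11.27 in Sar1B:H79G lines, 11.36 in Sar1B lines, 11.19 in the Sar1A line and 11.45 in control lines, with no call. The rat Sar1a probe set averaged 12.88 in Sar1B:H79G lines, 11.75 in Sar1B lines, 13.10 in the Sar1A line and 11.39 in control lines, and was higher than control in Sar1B:H79G lines (adjusted p = 0.0058) and in the Sar1A line (adjusted p = 0.043). Neither passed in Sar1B lines compared with control lines. In bulk RNA, fewer cells of a kind and less RNA per cell cannot be told apart. The control arrays carried a different title code from all others, so the absence of a Sar1 construct and the array series cannot be told apart. Spike-in RNAs differed between these series: the 5′ minus 3′ log2 signal of the PheX control was -0.59 and -0.61 in the Sar1B:H79G lines, against -1.53 and -1.75 in the control lines. Comparisons among Sar1B:H79G, Sar1B and Sar1A lay within 1 series.

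The question put to each member was whether its transcript level differed between Sar1B:H79G cells and the cells with native Sar1B, native Sar1A or no construct. Differences are log2, the first-named group minus the second, from limma fitted on the 7 line means over all 31042 probe sets, and a gene is said to rise or fall where its Benjamini-Hochberg adjusted p was under 0.05. In Sar1B:H79G cells compared with Sar1B cells, 2 of 79 genes rose (Cox6a2 and Atp5if1) and 1 fell (Sdhd), or 3.80%, against a background of 8.63% of all probe sets (3.34% higher and 5.29% lower). The arrays of the groups did not overlap for 6 members that were higher and 6 that were lower, against a background of 13.2% of all probe sets. The median difference of the members was 0.0036, and that of all probe sets 0.0078. Compared with control cells, 7 rose and 5 fell, or 15.2%, against a background of 22.3% of all probe sets (13.2% higher and 9.17% lower), and the median was 0.05, beside 0.027 over all probe sets. The arrays did not overlap for 17 higher and 6 lower members, against a background of 27.6%. After quantile normalization of the deposited values the split was 1 higher and 6 lower against Sar1B cells (all probe sets, 4.07% higher and 5.13% lower), and 1 higher and 25 lower against control cells (all probe sets, 11.8% higher and 11.6% lower). Of the 7 rises over control cells, 1 was called under that scaling, and of the 5 falls, 5.

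**Figure D1:**
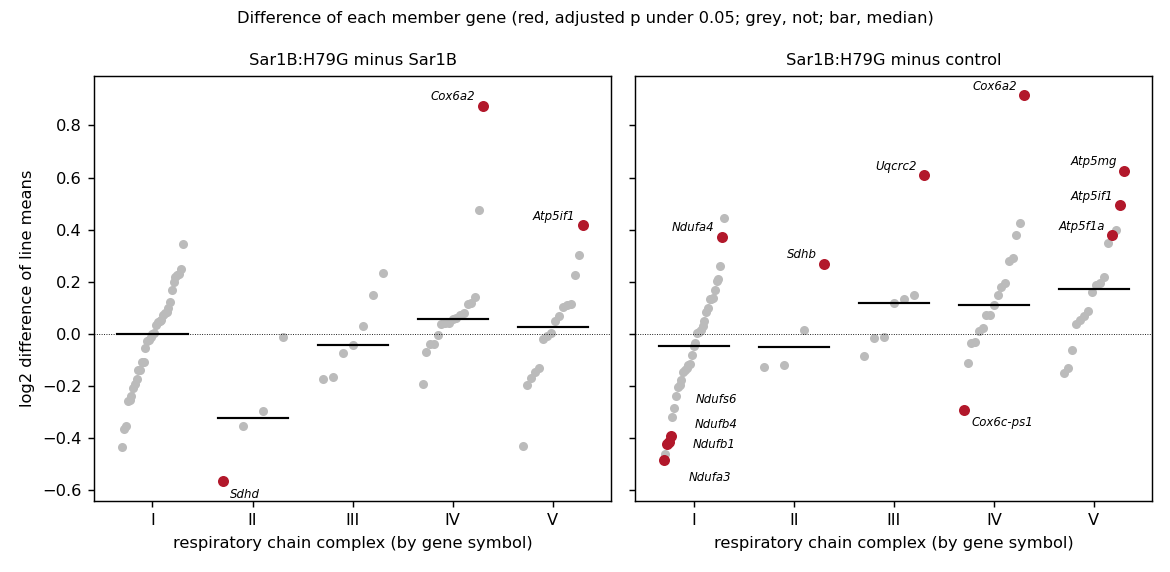
Log2 difference of each of the 79 genes in Sar1B:H79G lines compared with Sar1B lines (left) and control lines (right), by complex. Each point is a gene, red where its adjusted p was under 0.05, and the bar is the median of the complex. Cox6a2 lies highest in both panels, and complex II is the only complex with no point above 0 on the left.

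Cox6a2 was the member with the largest difference in each comparison of Sar1B:H79G cells with another group. It encodes the heart and skeletal muscle isoform of subunit 6a of cytochrome c oxidase, a regulatory subunit of complex IV. On the 8 Sar1B:H79G arrays its log2 signal ran from 8.14 through a median of 8.48 to 8.54. On the 8 Sar1B arrays it ran from 7.35 through 7.58 to 7.69. The 4 Sar1A arrays gave 7.65, 7.71, 7.49 and 7.57. Control line 1 gave 7.55 and 7.53, and control line 2 gave 7.30, 7.57 and 7.62. Every Sar1B:H79G array thus lay above every array of the other 5 lines, which overlapped one another. Both Sar1B:H79G lines were raised, with line means of 8.36 and 8.51. The difference was 0.88 from Sar1B cells (SE 0.076, 1.84-fold, adjusted p = 0.0037), 0.83 from Sar1A cells (SE 0.093, 1.78-fold, adjusted p = 0.014) and 0.92 from control cells (SE 0.076, 1.89-fold, adjusted p = 0.0017). In native Sar1B cells it was 0.04 from control (SE 0.076, adjusted p = 0.77). The calls against Sar1B and control cells held under all 15 alternative settings in which the gene was tested, with adjusted p up to 0.021 and 0.026. The call against Sar1A cells was lost when control line 1 or control line 2 was left out, or when the Sar1B:H79G and Sar1A lines were fitted alone (adjusted p up to 0.1). The probe set was dim, with 40.6% of all probe sets dimmer, and no detection call was given for it.

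The Cox6a2 promoter is shown because this gene differed most. It is RefSeq sequence of build GRCr8, chr1:192219667-192219966 on the minus strand, from 250 bases before the start site to 50 after it, and the start used lies 1472 bases inside the annotated span of the gene (192218970 to 192221188). Capitals mark matches to the motifs searched on both strands.
Cox6a2: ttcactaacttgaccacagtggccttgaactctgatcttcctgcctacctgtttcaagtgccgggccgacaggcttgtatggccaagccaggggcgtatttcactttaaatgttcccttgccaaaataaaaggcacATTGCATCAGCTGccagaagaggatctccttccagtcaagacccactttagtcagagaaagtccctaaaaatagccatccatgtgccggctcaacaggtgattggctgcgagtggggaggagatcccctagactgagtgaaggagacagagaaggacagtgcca
The capitals hold 2 overlapping matches. The first, ATTGCATCA from position -114, is the reverse complement of TGATGNAAT, the composite element bound by ATF4 with a C/EBP protein. The second, from position -107, is the E-box CAGCTG read by MyoD-family factors. The composite occurred in 1 of the 71 members with a promoter entry, Cox6a2 itself (1.41%), and in 1.09% of 33469 promoters of the same length. The E-box occurred in 11 of 71 members (15.5%), against 15.1% of all promoters.

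None of the other isoforms of complex IV subunits passed the test in Sar1B:H79G cells. Cox6a1, the isoform of most tissues including liver, ran from 13.18 through 13.31 to 13.41 on Sar1B:H79G arrays, from 13.07 through 13.14 to 13.28 on Sar1B arrays, and gave 13.23, 13.22, 13.37 and 13.35 on the 4 Sar1A arrays. Control line 1 gave 13.28 and 13.16, and control line 2 gave 13.06, 13.05 and 13.08. All groups overlapped, and the difference was 0.14 from Sar1B cells (adjusted p = 0.42) and 0.15 from control cells (adjusted p = 0.22). The other striated muscle isoforms did not pass: Cox7a1 differed by 0.04 from Sar1B cells (SE 0.062) and 0.01 from control cells (SE 0.062), and Cox8b by 0.04 (SE 0.070) and 0.07 (SE 0.070). Of the 8 striated muscle markers, 0 passed against Sar1B cells and 1, Myh7, was higher than in control cells, by 0.24. Of the 12 hepatocyte markers, 0 rose and 3 fell against Sar1B cells, where 5.29% of all probe sets were lower. Against control cells 0 of the 12 rose and 4 fell, where 9.17% of all probe sets were lower. The hypoxia-linked isoform Cox4i2 differed by -0.03 from control cells, and the testis isoform Cox6b2 by 0.20 (adjusted p = 0.13).

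**Figure D2:**
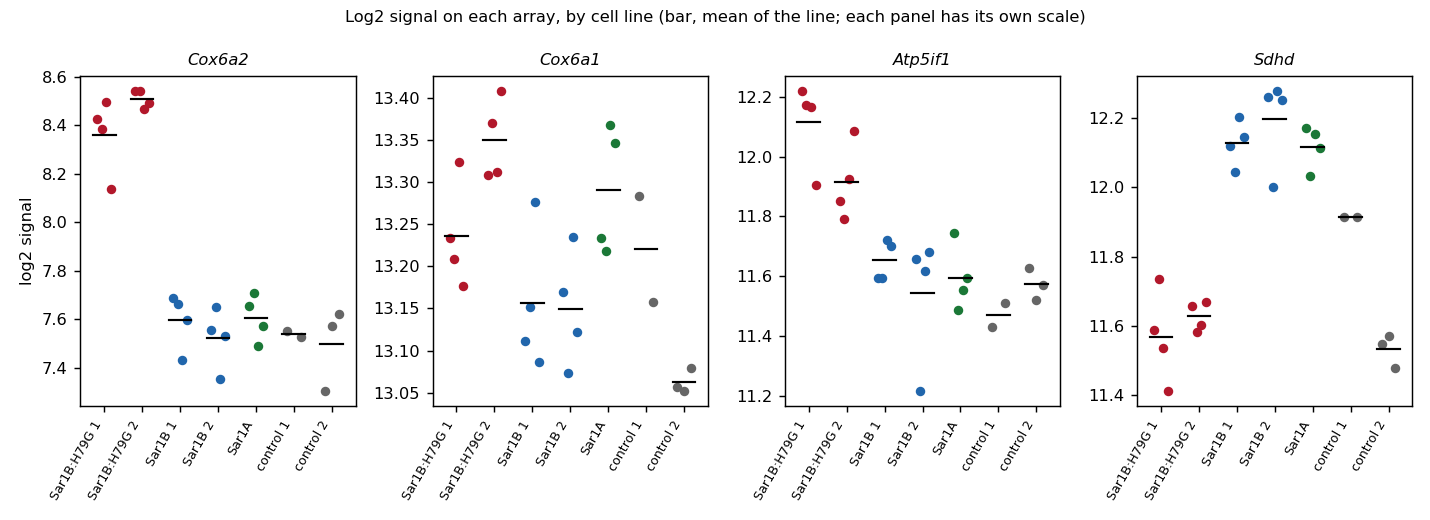
Log2 signal on every array for Cox6a2, Cox6a1, Atp5if1 and Sdhd in the 7 lines. Each point is an array, the bar is the mean of the line, and each panel has its own vertical scale. Cox6a2 in the 2 Sar1B:H79G lines lies above all other lines (8.14 or more, against 7.71 or less), whereas Cox6a1 overlaps between groups.

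Elsewhere in complex IV, the pseudogene Cox6c-ps1 fell against control cells, at 8.56 in Sar1B:H79G lines and 8.85 in control lines (difference -0.29, SE 0.064, adjusted p = 0.025), and it differed by -0.005 from Sar1B lines. Its sequence is close to that of Cox6c, so its signal may hold both, and the call was lost without either Sar1B:H79G line or either control line. Cox7a2l, which helps assemble complexes III and IV into supercomplexes, averaged 0.47 above Sar1B cells and its arrays did not overlap theirs, but adjusted p was 0.053. Ndufa4, which carries a complex I name and is a subunit of complex IV, averaged 13.16 in Sar1B:H79G lines and 12.78 in control lines and rose (difference 0.37, SE 0.096, adjusted p = 0.040). That call was lost under 8 of 16 alternatives, including quantile normalization and leaving out control line 2 or either line of Sar1B:H79G or Sar1B cells. Cox5b, a zinc-binding subunit on the matrix side, differed from control cells by 0.38 (adjusted p = 0.070).

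Complex II, succinate dehydrogenase, was the complex whose genes averaged furthest below Sar1B cells. The median of its 4 genes was -0.32 against Sar1B cells, -0.30 against the Sar1A line and -0.05 against control cells. Sdhd, a membrane anchor subunit that binds heme and ubiquinone, fell. On Sar1B:H79G arrays it ran from 11.41 through 11.59 to 11.73. On Sar1B arrays it ran from 12 through 12.18 to 12.28. The 4 Sar1A arrays gave 12.17, 12.03, 12.15 and 12.11. Control line 1 gave 11.91 and 11.91, and control line 2 gave 11.55, 11.57 and 11.48. The Sar1B:H79G arrays lay below all Sar1B and Sar1A arrays, and control line 2 lay within their range while control line 1 lay above it. The difference was -0.57 from Sar1B cells (SE 0.13, adjusted p = 0.047), -0.52 from the Sar1A line (SE 0.15, adjusted p = 0.17) and -0.13 from control cells (SE 0.13, adjusted p = 0.50). The call was lost under 8 of 16 alternatives, among them leaving out either Sar1B:H79G line or either Sar1B line (adjusted p up to 0.18). A second Sdhd probe set gave -0.46 from Sar1B cells with no overlap of arrays (SE 0.17, adjusted p = 0.19).

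Sdha, the flavoprotein that oxidizes succinate, ran from 11.38 through 11.59 to 11.82 on Sar1B:H79G arrays, and from 11.78 through 11.93 to 12.08 on Sar1B arrays. The 2 groups overlapped by a narrow margin, and the difference was -0.35 (SE 0.11, adjusted p = 0.11). Sdhc, the other anchor subunit, ran from 11.91 through 11.97 to 12.06 on Sar1B:H79G arrays and from 12.16 through 12.27 to 12.39 on Sar1B arrays. These did not overlap, and the difference was -0.30 (SE 0.097, adjusted p = 0.14). Under quantile normalization Sdha (-0.39), Sdhc (-0.36) and Sdhd (-0.63) all passed against Sar1B cells, with adjusted p of 0.046, 0.031 and 0.015. Sdhb, the iron-sulfur subunit, went another way: it differed by -0.01 from Sar1B cells, and rose over control cells (11.97 in Sar1B:H79G lines, 11.70 in control lines, difference 0.27, SE 0.064, adjusted p = 0.033), a call lost under 9 of 16 alternatives, quantile normalization and leaving out any 1 of the 6 Sar1B:H79G, Sar1B and control lines among them. Native Sar1B cells lay above control cells by 0.37 for Sdha, 0.28 for Sdhb, 0.18 for Sdhc and 0.44 for Sdhd, and none of these passed (adjusted p 0.052 to 0.28).

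**Figure D3:**
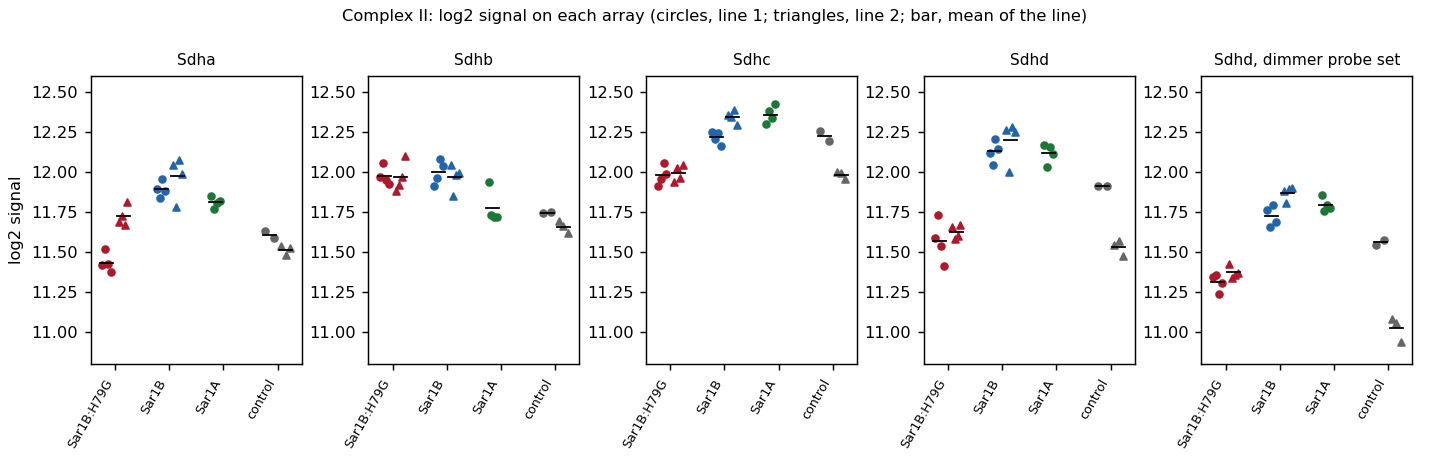
Log2 signal of the 4 complex II genes on every array, with both Sdhd probe sets, on a common scale. Circles are line 1 and triangles line 2 of a group, and bars are line means. In the Sdhc panel and both Sdhd panels every Sar1B:H79G array lies below every Sar1B and Sar1A array, whereas for Sdhb the Sar1B:H79G and Sar1B arrays overlap.

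The Sdhd promoter is shown because this was the member that fell against Sar1B cells. The window is chr8:59850592-59850891 of GRCr8, minus strand (RefSeq), with matches in capitals.
Sdhd: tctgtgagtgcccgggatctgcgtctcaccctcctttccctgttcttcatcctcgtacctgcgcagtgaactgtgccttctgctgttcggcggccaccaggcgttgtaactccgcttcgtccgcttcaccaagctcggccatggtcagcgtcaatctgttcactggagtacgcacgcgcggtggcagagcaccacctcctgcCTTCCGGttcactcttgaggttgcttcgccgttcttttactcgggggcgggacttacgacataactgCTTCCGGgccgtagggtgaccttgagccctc
Both capital runs, CTTCCGG from positions -48 and 20, are the reverse complement of CCGGAAG, the core read by Ets factors such as GABP (NRF-2). That core occurred in 20 of 71 member promoters (28.2%), against 8.75% of all promoters. The start of Timm8b, a chaperone of the mitochondrial intermembrane space, lies 96 bases away on the opposite strand. Timm8b averaged 12.06 in Sar1B:H79G lines and 12.12 in Sar1B lines, a difference of -0.05 (SE 0.097, adjusted p = 0.85).

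In complex V, ATP synthase, 1 of 16 genes rose against Sar1B cells and 3 rose against control cells, and 0 fell. Of all probe sets, 3.34% were higher and 5.29% lower than in Sar1B cells, and 13.2% and 9.17% than in control cells. After quantile normalization 0 rose and 1 fell against Sar1B cells. Against control cells that scaling gave 0 higher and 4 lower, with 11.8% of all probe sets higher and 11.6% lower. Atp5if1, the inhibitor that keeps ATP synthase from running backwards and consuming ATP, rose in both comparisons with the deposited values. It ran from 11.79 through 12.01 to 12.22 on Sar1B:H79G arrays and from 11.21 through 11.64 to 11.72 on Sar1B arrays. The Sar1A arrays gave 11.74, 11.49, 11.55 and 11.59, control line 1 gave 11.43 and 11.51, and control line 2 gave 11.63, 11.52 and 11.57. All Sar1B:H79G arrays lay above all others. The difference was 0.42 from Sar1B cells (SE 0.093, adjusted p = 0.046), 0.49 from control cells (SE 0.093, adjusted p = 0.016) and 0.42 from the Sar1A line (SE 0.11, adjusted p = 0.14). The call against Sar1B cells was lost under 11 of 16 alternatives, including when either control line, either Sar1B line or Sar1B:H79G line 1 was left out. It was also lost, with a difference of 0.36 and adjusted p = 0.060, without array 2 of Sar1B line 2, on which the gene was lowest. The call against control cells was lost without control line 1, control line 2 or Sar1B:H79G line 1, and under quantile normalization. Its other 2 probe sets were dim and differed from Sar1B cells by 0.12 and 0.08, with no call.

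For comparison with the windows above, the Atp5if1 window (chr5:150026628-150026927 of GRCr8, minus strand, RefSeq) held no match to the motifs searched.
Atp5if1: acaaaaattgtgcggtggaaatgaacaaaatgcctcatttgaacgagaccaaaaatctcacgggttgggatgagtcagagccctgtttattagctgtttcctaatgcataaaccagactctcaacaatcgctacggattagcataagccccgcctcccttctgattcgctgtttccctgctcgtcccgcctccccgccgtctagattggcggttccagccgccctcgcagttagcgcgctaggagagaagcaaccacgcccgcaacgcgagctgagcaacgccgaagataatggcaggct

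The other 2 rises in complex V were seen against control cells alone. Atp5f1a, the alpha subunit of the catalytic head, averaged 13.31 in Sar1B:H79G lines and 12.93 in control lines (difference 0.38, SE 0.079, adjusted p = 0.023). Native Sar1B lines averaged 13.44 and also rose over control (difference 0.51, adjusted p = 0.022), and the Sar1A line was 0.57 above control (adjusted p = 0.055). Every array of the second series thus lay above every control array for Atp5f1a. Atp5mg, a small membrane subunit, averaged 12.97 in Sar1B:H79G lines and 12.34 in control lines (difference 0.63, SE 0.14, adjusted p = 0.030). Both Sar1B:H79G calls were lost under quantile normalization and without control line 2 or Sar1B:H79G line 2. That of Atp5f1a was also lost without Sar1B:H79G line 1 and with limma's trend and robust options. The catalytic beta subunit Atp5f1b differed by 0.40 from control cells (adjusted p = 0.070), and the gamma subunit Atp5f1c of the rotor stalk by -0.43 from Sar1B cells (adjusted p = 0.060).

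Complex III gave 1 call, against control cells, where 22.3% of all probe sets passed. Uqcrc2, a core protein on the matrix side, averaged 12.03 in Sar1B:H79G lines and 11.42 in control lines and rose (difference 0.61, SE 0.15, adjusted p = 0.035). Its lines differed: Sar1B:H79G line 1 averaged 12.27 and line 2 11.80, and both lay above control lines 1 (11.46) and 2 (11.39). Against Sar1B cells, which averaged 11.80, the difference was 0.23 (SE 0.15, adjusted p = 0.49). The second Uqcrc2 probe set differed from control cells by 0.69 (adjusted p = 0.060). The call was lost under 6 of 16 alternatives, among them leaving out either line of the control or Sar1B groups. The partner core protein Uqcrc1 differed by -0.01 from control cells, and the Rieske iron-sulfur protein Uqcrfs1 by 0.13, with no call.

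In complex I, 4 of 35 genes fell against control cells and 1 (Ndufa4, above) rose, where 9.17% of all probe sets were lower and 13.2% higher. Against Sar1B cells 0 passed, with 7 (20%) under an unadjusted p of 0.05, against 21.4% of all probe sets. The genes that fell were small accessory subunits. Ndufa3, of the proximal membrane arm, ran from 11.59 through 11.81 to 11.91 on Sar1B:H79G arrays, from 11.85 through 12.05 to 12.10 on Sar1B arrays, and gave 12.10, 12, 12.08 and 12.05 on Sar1A arrays. Control line 1 gave 12.40 and 12.33, and control line 2 gave 12.21, 12.20 and 12.13. The Sar1B:H79G arrays lay below all Sar1A and control arrays and overlapped the Sar1B arrays (difference from control -0.48, SE 0.084, adjusted p = 0.013). This call was lost in 1 of 16 alternatives, without Sar1B:H79G line 1 (adjusted p = 0.052).

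Ndufb4, of the distal membrane arm, showed a different order of groups. It ran from 12.04 through 12.27 to 12.41 on Sar1B:H79G arrays, from 12.49 through 12.58 to 12.63 on Sar1B arrays, and gave 12.62, 12.58, 12.66 and 12.64 on Sar1A arrays. Control line 1 gave 12.73 and 12.70, and control line 2 gave 12.59, 12.57 and 12.52. The Sar1B:H79G arrays lay below those of every other group, which overlapped one another. The difference was -0.42 from control cells (SE 0.093, adjusted p = 0.027) and -0.35 from Sar1B cells (SE 0.093, adjusted p = 0.077), and the difference from Sar1B cells passed after quantile normalization (-0.41, adjusted p = 0.031). The call against control cells was lost without control line 1, control line 2 or Sar1B:H79G line 1 (adjusted p up to 0.10).

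The Ndufb4 promoter is shown as the example of the other motif, and it lies at chr11:76568928-76569227 of GRCr8, plus strand (RefSeq).
Ndufb4: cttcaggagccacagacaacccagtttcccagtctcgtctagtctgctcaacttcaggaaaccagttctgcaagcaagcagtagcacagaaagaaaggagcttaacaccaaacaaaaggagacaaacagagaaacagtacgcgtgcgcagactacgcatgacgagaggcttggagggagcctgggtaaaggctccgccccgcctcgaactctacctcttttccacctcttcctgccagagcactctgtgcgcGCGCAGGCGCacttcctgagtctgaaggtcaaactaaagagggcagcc
The capitals, from position 3, are GCGCAGGCGC, the reverse complement of GCGC and TGCGC with any 1 base between them, the element bound by NRF-1, a regulator of respiratory chain genes. It occurred in 13 of 71 member promoters (18.3%), against 4.25% of all promoters.

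The other 2 genes of complex I that fell had overlapping arrays in Sar1B:H79G and Sar1B cells. Ndufb1, of the distal membrane arm, ran from 11.71 through 11.94 to 12.08 on Sar1B:H79G arrays and from 11.77 through 11.89 to 11.97 on Sar1B arrays, against 12.49 and 12.23 in control line 1 and 12.42, 12.16 and 12.32 in control line 2. It fell against control cells in Sar1B:H79G cells (-0.42, SE 0.076, adjusted p = 0.014) and in Sar1B cells (-0.46, SE 0.076, adjusted p = 0.026), and Sar1B:H79G and Sar1B cells differed by 0.03. Ndufs6, an accessory subunit of the NADH-oxidizing arm, was 0.39 lower in Sar1B:H79G cells than in control cells (log2 difference -0.39, SE 0.090, adjusted p = 0.030). It was -0.34 in Sar1B cells (adjusted p = 0.072) and -0.43 in the Sar1A line (adjusted p = 0.11). For both genes the Sar1B:H79G call was lost without control line 1, control line 2 or Sar1B:H79G line 1, and that of Ndufs6 also with limma's trend and robust options. The core subunit Ndufv1, which holds the NADH site, differed by 0.01 from control cells, and Ndufs1, the largest iron-sulfur subunit, by 0.44 (adjusted p = 0.052).

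With the deposited values, the members' median difference between lines was larger between the 2 control lines than between the Sar1B:H79G or Sar1B lines, an order that did not hold after quantile normalization. Control line 1 was above control line 2 for 74 of 79 members (93.7%), against 56.3% of all genes and 79.1% of the 1717 genes averaging above a log2 signal of 11. The arrays of the 2 control lines did not overlap with line 1 higher for 63 members, and with line 2 higher for 1. Over all 14217 genes these counts were 3628 and 2177, and over the 1717 bright genes 959 and 121. The median difference over members was 0.20, beside 0.022 over all genes and 0.12 over the bright genes. By complex it was 0.18 in complex I, 0.17 in II, 0.23 in III, 0.16 in IV and 0.28 in V. The largest was Atp5pf, a stalk subunit of ATP synthase, at 0.59. The corresponding median was -0.05 between the Sar1B:H79G lines, where line 2 was higher for 55 of 79 members, and -0.02 between the Sar1B lines, where line 2 was higher for 48. Of the 1717 bright genes, line 2 was higher for 941 between the Sar1B:H79G lines and for 805 between the Sar1B lines. After quantile normalization line 2 was higher for 58 of 79 members between the Sar1B:H79G lines (median -0.095) and for 52 between the Sar1B lines (median -0.026), and control line 1 was higher for 56 of 79 (median 0.053). The bright end of the deposited values differed by line: the 95th percentile was 11.45 and 11.51 in the Sar1B:H79G lines, 11.44 and 11.44 in the Sar1B lines, 11.43 in the Sar1A line, and 11.33 and 11.25 in the control lines, while medians ran from 8.1 to 8.15. The part of this spread in the member differences from control was not tested.

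**Figure D4:**
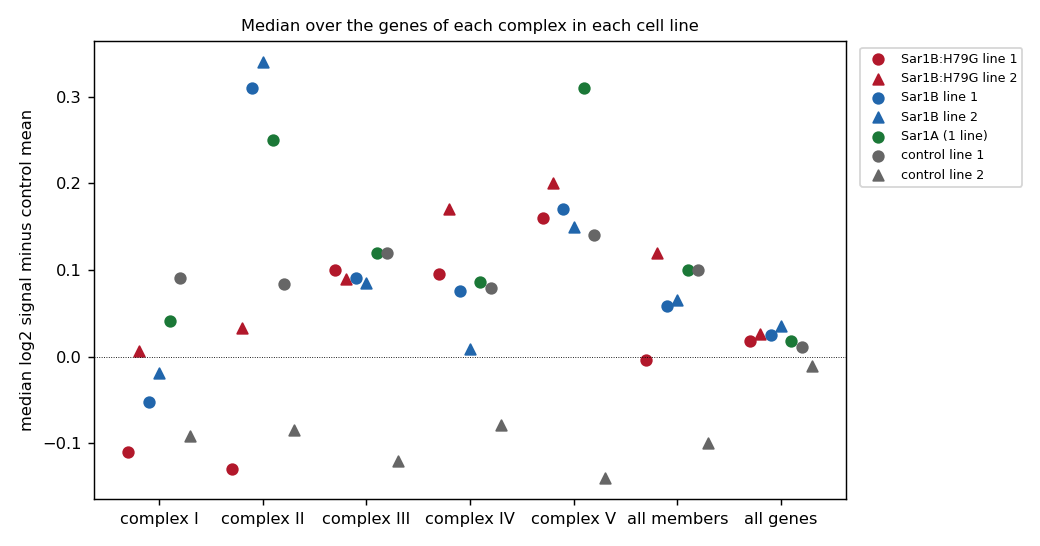
Median log2 signal over the genes of each complex by line, after subtracting for each gene the average of the control lines. Circles are line 1 and triangles line 2. Control lines 1 and 2 stand 0.16 to 0.28 apart in the 5 complexes, and in complex II the Sar1B:H79G lines (-0.13 and 0.033) lie below the Sar1B (0.31 and 0.34) and Sar1A (0.25) lines.

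**Figure D5:**
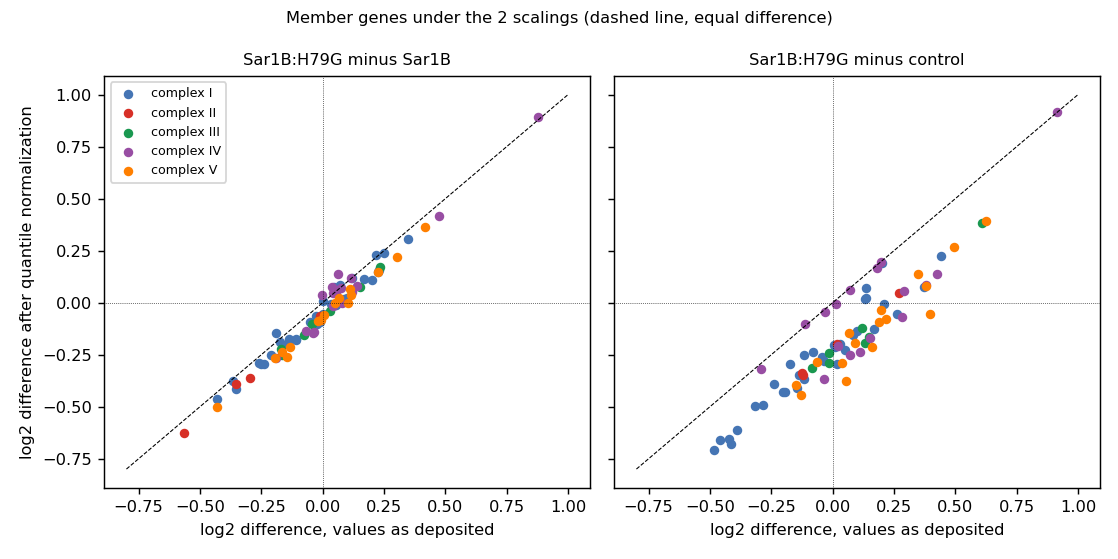
Log2 difference of each member gene in Sar1B:H79G lines from Sar1B lines (left) and control lines (right), with the deposited values on the horizontal axis and quantile-normalized values on the vertical axis. The dashed line marks equal values. The median moves to -0.015 as against 0.0036 on the left, and to -0.20 as against 0.05 on the right, and Cox6a2 stays on the line in both panels.

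By complex, the median difference from control cells under quantile normalization was -0.26 in complex I, with 18 of 35 genes lower and 0 higher (all probe sets, 11.6% lower and 11.8% higher), -0.27 in complex II, -0.19 in complex III, -0.04 in complex IV and -0.12 in complex V. With the deposited values it was -0.05, -0.05, 0.12, 0.11 and 0.17. The sign of the median in complexes III, IV and V therefore depended on the scaling, whereas in complexes I and II it was negative under both. Over all members, leaving out control line 1 gave a median difference of 0.18 from control cells. Leaving out control line 2 gave a median of -0.069.

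Native Sar1 gave fewer calls. In Sar1B cells 1 member (Atp5f1a) rose and 2 (Ndufb1 and Cox6c-ps1) fell against control cells, or 3.80%, against a background of 8.29% of all probe sets (6.28% higher and 2.01% lower), with a median of 0.041 beside 0.031. The split was 0 higher and 7 lower after quantile normalization. Shares of all probe sets under that scaling are not given for this comparison, so the split does not set the members apart from other genes. The call of Cox6c-ps1 was lost under 11 of 16 alternatives, among them leaving out any 1 of the 6 Sar1B:H79G, Sar1B and control lines. That of Atp5f1a was lost under 4, without control line 2 or either Sar1B line and with quantile values, and that of Ndufb1 under 4, without either control or either Sar1B line. In the Sar1A line 0 of 79 passed limma's test against control cells, against a background of 1.18% (0.995% higher and 0.187% lower). At an unadjusted p under 0.05 there were 13 members, against 22.8% of all probe sets. Its largest difference was Atp5pd, the d subunit of the ATP synthase stalk. The 4 Sar1A arrays gave 13.91, 14.20, 14.17 and 14.30, while Sar1B:H79G arrays reached at most 13.67, Sar1B arrays at most 13.64 and control arrays at most 13.57. The Sar1A line thus stood above every other array, by 0.70 over control cells (adjusted p = 0.051). In Sar1B:H79G cells compared with the Sar1A line 1 member (Cox6a2) rose and 0 fell, or 1.27%, against a background of 2.96% (1.33% higher and 1.63% lower). In the Sar1A line compared with Sar1B cells limma called 0 members, against a background of 0.00322%, all of it higher, and 5 had an unadjusted p under 0.05, against 6.56% of all probe sets. One clone stood for Sar1A, so clone and construct cannot be told apart there.

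Genes that build or feed the complexes were read from lists chosen beside the members. Their counts stand against backgrounds of 3.34% higher and 5.29% lower against Sar1B cells, and 13.2% higher and 9.17% lower against control cells. After quantile normalization the backgrounds were 4.07% and 5.13% against Sar1B cells, and 11.8% and 11.6% against control cells. Of 19 assembly factors of complex IV, 3 were higher and 3 lower than in Sar1B cells, and 2 higher and 5 lower than in control cells (2 and 6 after quantile normalization). Surf1, needed for early assembly of the enzyme, rose by 0.35 and 0.36. Coa4 (-0.37 and -0.40), Cmc2 (-0.51 and -0.43) and Cox20 (-0.54 and -0.31) fell in both comparisons. Of 16 assembly factors of complex I, 0 rose and 1 fell in each comparison, Acad9, by 0.62 against Sar1B cells and by 0.41 against control cells. Of 4 assembly factors of ATP synthase, 1, Atpaf1, fell by 0.44 against Sar1B cells and 0 passed against control cells. Of 9 assembly factors of complex III, 0 passed against Sar1B cells, and 1 rose and 2 fell against control cells. Of 4 for complex II, 0 passed in either comparison. In the pyruvate dehydrogenase list, 4 of 9 fell against Sar1B cells and 0 rose: the kinases Pdk3 (-1.10) and Pdk2 (-0.92), the phosphatase Pdp2 (-0.72) and the E1 alpha subunit Pdha1 (-0.53). Against control cells 1 of the 9 rose and 1 fell (0 and 2 after quantile normalization). The citric acid cycle list held 1 of 11 that fell against Sar1B cells, Suclg2 (-0.86), a subunit of succinyl-CoA ligase, the enzyme before succinate dehydrogenase, and 1 that rose against control cells, Mdh2 (0.63). After quantile normalization 0 of that list rose and 2 fell in each comparison.

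Among 12 regulators of respiratory chain genes, 1 rose and 1 fell against Sar1B cells, and 3 rose and 2 fell against control cells (1 and 3 after quantile normalization). Tfb1m, a methyltransferase of mitochondrial ribosomal RNA, rose by 0.71 against Sar1B cells and 0.76 against control cells. Ppargc1a, the coactivator PGC-1 alpha, fell by 0.51 and 0.68, and the call against Sar1B cells was lost under quantile normalization and with arrays shifted to the same median. Yy1 and Pprc1, a transcription factor and a coactivator of the PGC-1 family, rose by 0.53 and 0.30 against control cells. Gabpb1, a subunit of the Ets factor GABP, fell by 0.90 against control cells. Of 31 genes of mitochondrial protein import, 5 rose against Sar1B cells and 0 fell, led by Hspa9 (0.70), the matrix chaperone that pulls proteins in, and Grpel1 (0.61), its exchange factor. Against control cells 10 of the 31 rose and 0 fell with the deposited values (background 13.2% and 9.17%), and 3 rose and 3 fell after quantile normalization. Of 73 mitochondrial ribosomal protein genes, 4 rose and 6 fell against Sar1B cells. Of 12 genes of coenzyme Q synthesis and turnover, 2 rose against control cells, Coq10b (1.05) and Coq4 (0.50), and 2 fell, Coq8a (-0.66) and Coq7 (-0.47).

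A further 7 probe sets carried a member symbol together with that of a second gene and so fell outside the rule. In Sar1B:H79G cells compared with control cells, 2 of these passed and were higher, those shared by Ndufa10 and Ndufa10l1 (0.67, adjusted p = 0.0094) and by Atp5mc1 and Atp5mc1l1 (0.47, adjusted p = 0.018). Both were also higher than in Sar1B cells, by 0.65 (adjusted p = 0.018) and 0.49 (adjusted p = 0.027). Of all probe sets, 22.3% passed against control cells and 8.63% against Sar1B cells. Of the 79 members, 66 passed in none of the 6 comparisons, and 68 stayed within a log2 difference of 0.5 in all of them. The same counts over all genes are not given here, so these do not set the members apart from other genes.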

How the data were processed

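Affymetrix rat genome arrays, 25 in all, measured total RNA of 7 McArdle-RH7777 lines. Per the study's methods and the labels, the authors normalized raw intensities by loess and summarized them with the MAS5 algorithm in CARMAweb. The log2 values were used as deposited. The base was inferred from their range, and no detection calls were given. Genome build and annotation versions were not given in the sources used here. The 57 array controls were left out. Symbols came from the platform annotation: 20826 probe sets had 1 symbol, 436 several and 9780 none, and all 88 member identifiers matched RefSeq. Arrays were averaged by line, and groups were compared with limma 3.58.1 (R 4.3.3; 3 residual and 3.16 prior degrees of freedom) over 31042 probe sets. A gene was represented by its brightest probe set. p-values measure the spread between lines, of which there were 2, 2, 1 and 2. The number of lines limits precision. The single Sar1A line adds no spread of its own, so its p-values rest on the spread pooled over the other groups. Named genes were, per complex, the largest calls and the smallest differences, all of complex II and the isoform groups. Other genes were named after their values were seen. The members and lists were chosen with earlier results of these data known, the promoter motifs after the expression values were seen. Scripts were tested on simulated data. The significance analysis of microarrays (SAM) of the study was not run.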

Additional observations from a re-analysis of the deposited data

Results flagged for a closer look

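Of 144 sets of arrays examined (a named member, or the median of a complex or of all members, in 1 group), 5 had an array far from the rest of its group. For independent values from 1 population chance alone gives about 1 in 20. The arrays here were pooled over the lines of a group, so that rate need not hold. Cox6a2 was lowest on array 4 of Sar1B:H79G line 1, at 8.138, with the next array at 8.383, and both lay above all arrays of the other groups. Atp5if1 was lowest on array 2 of Sar1B line 2, at 11.21, with the next at 11.59. Ndufa3 was lowest on that same array, at 11.85, with the next at 12. Cox4i1, the main isoform of subunit 4, was highest on array 3 of Sar1B:H79G line 1, at 13.70, with the next at 13.59. Sdhb was highest on array 1 of the Sar1A line, at 11.94, with the next at 11.73.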

How the results depend on the processing

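Counts of members are higher and lower calls of 79. Shares of all probe sets are not given beside them in this section, so they show only how calls vary with the setting. Taking each array as a replicate treats technical replicates as independent. In that setting the counts were 16 and 18 for Sar1B:H79G against Sar1B, 8 and 17 against Sar1A and 29 and 11 against control. They were 27 and 11 for Sar1B against control, and 31 and 4 for Sar1A against control and 11 and 3 against Sar1B. With the line as a random block they were 8 and 11, 6 and 8, 21 and 8, 17 and 8, 18 and 1, and 2 and 1, in that order. Under quantile normalization Sar1B:H79G gave 1 and 6 against Sar1B, 2 lower against Sar1A, and 1 and 25 against control (median -0.20), Sar1B 0 and 7 against control (median -0.14), and Sar1A a median of -0.089. Ndufb11 (-0.294), Ndufc2 (-0.213) and Atp5mc3 (-0.375) were called lower than control there. With the deposited values they differed by 0.0168, 0.00905 and 0.0552 with no call, so their sign changed but no call was reversed. For Sar1B:H79G against Sar1B, 0 were lower with arrays shifted to 1 median, with trend and robust options (1 higher), with the mean of a gene's probe sets, and with the line number as a replicate block (1 higher), 2 were lower among probe sets above the median, and 1 was higher with the lines of both groups alone. Sar1B:H79G against control gave 4 higher with trend and robust options, and against Sar1A 0 higher with both groups alone. Above the median the comparison with Sar1A also gave 0 higher, but that filter removed its 1 called member, Cox6a2, before testing. Sar1B against control gave 1 lower with the replicate block, with the mean of probe sets and above the median, and 3 higher with both groups alone. Sar1A against control gave 2 higher and 1 lower with both groups alone, and 1 higher above the median. Without array 2 of Sar1B line 2, and with quantile values for the control lines, both chosen after seeing the data, Sar1B:H79G against Sar1B gave 1 higher for that array, and Sar1B against control 2 higher and 1 lower. The causes were not tested.

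Leaving out 1 line at a time gave, for Sar1B:H79G, 1 to 3 higher and 0 to 3 lower against Sar1B (median -0.016 to 0.044), 0 to 1 higher against Sar1A (median -0.12 to -0.035), and 1 to 12 higher and 0 to 6 lower against control (median -0.069 to 0.18). Sar1B against control gave 0 to 4 higher and 0 to 2 lower (median -0.061 to 0.14), and Sar1A against control 0 calls (median 6.4e-05 to 0.23). Same-numbered lines correlated at 0.0752, 0.192 and 0.0071, so the numbers were not taken to pair lines. Without detection calls, dim probe sets have no known floor.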
